A study of Mus musculus with 2 samples.

Results

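The genes of the major histocompatibility complex (MHC) antigen presentation pathway were examined in left ventricle from control and heart-specific *Bmal1* knockout (*H-Bmal1*-/-) mice. The 10 genes comprised 5 of the class I pathway (*H2-K1*, *H2-D1*, *B2m*, *Tap1* and *Tap2*) and 5 of the class II pathway (*H2-Aa*, *H2-Ab1*, *H2-Eb1*, *Cd74* and *Ciita*). They were chosen by name, and their probes were found through the transcript accession that the array design gives each probe, which yielded 12 probes. Of the 10 genes, 9 were well above background on both arrays, among 13862 of 20284 named genes that were above background on at least 1 array. The knockout mice carried a floxed *Bmal1* gene and a Cre transgene under the αMHC (*Myh6*) promoter, which acts in cardiomyocytes, so that the other cells of the heart kept an intact floxed gene. The controls were littermates with the floxed gene and no Cre, although the labels give their genotype as wildtype, and both parental lines were on a B6 background. All animals were males aged 12 weeks, and tissue was taken at ZT 2, which is shortly after lights on. RNA from 6 animals was pooled for each genotype and hybridized to 1 array, so there were 2 arrays in all and no replicates. No test was therefore possible, and each difference below describes these 2 pools.

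MHC class I molecules stand on nearly all nucleated cells and show peptides from inside the cell to CD8 T cells. Each consists of a heavy chain, such as *H2-K1* or *H2-D1*, and β2-microglobulin (*B2m*), and the TAP transporter, a dimer of *Tap1* and *Tap2*, moves the peptides into the endoplasmic reticulum. Class II molecules are made mainly by macrophages, dendritic cells and B cells and show peptides from engulfed material to CD4 T cells. Their α and β chains (*H2-Aa*, *H2-Ab1*, *H2-Eb1*) are held by the invariant chain *Cd74* until the peptide is loaded. *Ciita* switches class II genes on and *Nlrc5* class I genes, through promoter elements called the X and Y boxes that RFX, CREB and NF-Y proteins bind.

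The promoters are shown because these regulators act through them, and their values are given further on. RefSeq windows reaching 250 bases before and 50 after the start site were used for 6 of the 10 genes. *Tap2*, *H2-Ab1*, *Cd74* and *Ciita* were not among them, and *Cd74* was left out by choice. Where a gene had several windows, that of the most downstream start site was used. The stretch that holds the matches before the start is printed 5′ to 3′ for 5 of the 6 genes. Capitals mark GGGGATTCC (in enhancer A, bound by NF-κB), AANNGAAA (the core that IRF proteins bind), TGACG (the core of the X2 box), CTGATTGG (a Y box) and ATTGG (the NF-Y core within it), each on either strand. In *H2-Aa*, TGACG lies on both strands with an overlap.
H2-K1 (GRCm38.p6, chr17:34000334-34000463, minus strand): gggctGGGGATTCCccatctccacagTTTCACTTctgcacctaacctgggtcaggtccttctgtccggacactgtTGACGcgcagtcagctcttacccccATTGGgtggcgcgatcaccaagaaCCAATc
H2-D1 (GRCm38.p6, chr17:35262918-35263053, plus strand): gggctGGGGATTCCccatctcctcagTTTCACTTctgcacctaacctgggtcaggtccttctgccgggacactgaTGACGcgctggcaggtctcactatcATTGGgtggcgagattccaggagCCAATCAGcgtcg
B2m (GRCm38.p6, chr2:122147545-122147643, plus strand): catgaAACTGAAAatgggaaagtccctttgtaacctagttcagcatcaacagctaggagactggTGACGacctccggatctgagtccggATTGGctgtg
H2-Aa (GRCm38.p6, chr17:34287862-34288041, minus strand): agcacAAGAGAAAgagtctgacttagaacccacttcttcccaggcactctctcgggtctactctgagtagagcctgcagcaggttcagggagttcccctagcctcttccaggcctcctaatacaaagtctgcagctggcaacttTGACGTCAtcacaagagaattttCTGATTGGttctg
H2-Eb1 (GRCm38.p6, chr17:34305800-34305841, plus strand): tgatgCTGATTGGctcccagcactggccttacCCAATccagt

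The enhancer A letters stood in the windows of *H2-K1* and *H2-D1* and in 0.250% of 32851 RefSeq mouse promoter windows. The X2 core was found in 5 of the 6 windows (20.8% of all windows), the IRF core in 4 (23.9%), CTGATTGG in 5 (4.10%) and ATTGG, which lies inside CTGATTGG, in all 6 (37.4%). For 1 of the 5 windows with CTGATTGG, that of *H2-K1*, the match ran across the start site. The sixth window, that of *Tap1*, held the X2 core and CTGATTGG. An X2 core was followed by ATTGG on the same strand after 20 bases (*H2-K1*, *H2-D1*, *B2m*) or 21 bases (*H2-Aa*). A pair with 20 or 21 bases between occurred in 0.164% of all windows. The spacing counted is the same as that found in these genes, so this share is not an independent measure of how unusual they are. These matches describe letters and do not show binding in the heart.

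The arrays were alike in brightness, with 49.4% of spots well above background in the control pool and 50.03% in the *H-Bmal1*-/- pool, and the 75th percentile of the signal, to which each array was scaled, was 171 and 190.1. The signals below are as deposited, before scaling, and each log2 ratio is knockout minus control after scaling. Without scaling, every ratio moves up by 0.15. *Bmal1* itself (*Arntl*, 1 probe, whose place relative to the deleted exon was not determined) had a log2 ratio of −0.80, and *Nr1d1*, a clock gene that BMAL1 activates, of −2.09. The scanner software's own error of 1 spot amounted to about 0.20 on the log2 scale for bright probes. Spots of 1 probe differed less, with a median SD of 0.07 over 247 probes that had at least 8 spots. Both measures cover the array only and not the difference between animals.

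None of the MHC genes differed by as much as 1.2-fold between the pools after scaling to the 75th percentile. However, *B2m* did so without scaling (0.39) and with normexp (0.28), *Tap1* without scaling (0.37) and with cyclic loess (0.27), and *Tap2* with spike-in scaling (−0.27). Normexp is a model-based background correction, run here with an added offset of 50 that shrinks the ratios of dim probes. The class I light chain *B2m* (1.18-fold) and the transporter subunit *Tap1* (1.16-fold) lay higher in the *H-Bmal1*-/- pool, while the partner subunit *Tap2* (1.19-fold) and the invariant chain *Cd74* (1.18-fold) lay lower. Of the 9 genes measured, 3 were higher and 6 lower, where 48.4% of all measured genes were higher and 51.6% lower. Without scaling 5 of the 9 were higher and 4 lower, where 69.8% of all measured genes were higher and 30.2% lower. None of the 9 reached 1.5-fold, a size that 12.0% of the measured genes reached in either direction (6.17% higher and 5.85% lower). As reported none reached 1.2-fold, which 37.0% of the measured genes did (18.0% higher and 19.1% lower), nor 2-fold (4.47%, with 2.42% higher and 2.06% lower). In the set, 8 genes (all but *Tap1*) had signals above the 75th percentile on both arrays, and of the 7454 genes that did so, 5.67% reached 1.5-fold and 25.9% reached 1.2-fold. With 9 genes and 1 array per genotype, these shares set nothing apart about the MHC genes.

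**Figure D1:**
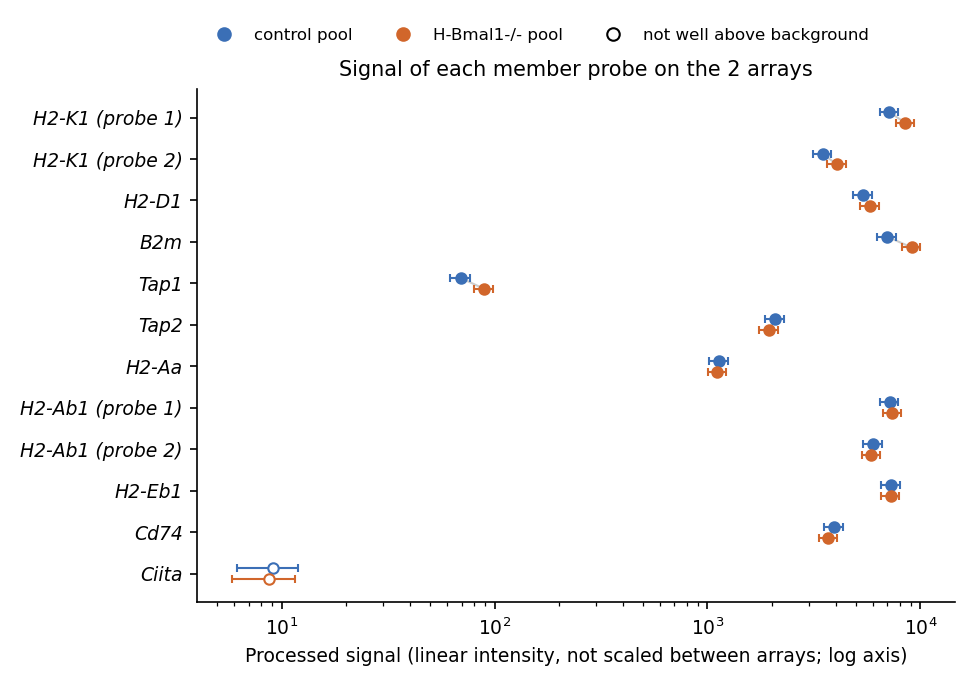
Deposited signal of each MHC probe (linear intensity on a log axis, before scaling) in the control pool (blue) and the *H-Bmal1*-/- pool (orange), 1 array each. Bars are the scanner software's error and open circles mark probes not well above background. The points of each pair lie close together, and only *Ciita* is open. Levels of different probes are not comparable.

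The class I heavy chain *H2-K1* was measured by 2 probes, 1 of them spotted 10 times. The signal of these 10 spots ran from 6575 to 7444 in the control pool and from 7902 to 8909 in the *H-Bmal1*-/- pool. After scaling, all 10 spots lay above 0, from 0.05 to 0.17, with a mean log2 ratio of 0.10 ± 0.04 (SD over spots). The other probe gave 3475 and 4048, a log2 ratio of 0.07, so that both probes pointed the same way by a small amount. *H2-D1*, the other classical heavy chain, was slightly lower after scaling (log2 ratio −0.05) with signals of 5382 and 5789.5, but its sign turned without scaling (0.11) and with normexp (0.01). Heavy chain genes are near-identical copies, and what else these probes bind was not tested.

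*B2m*, the light chain that all class I heavy chains share, gave 6830.4 and 7075 in its 2 control spots and 9037 and 9123 in its 2 *H-Bmal1*-/- spots. Both spots were higher in the *H-Bmal1*-/- pool, by log2 ratios of 0.25 and 0.22, and their mean of 0.23 stood at the 79.4th percentile of all measured genes. This was 1.15 times the scanner's error, whereas the probes of *H2-K1* stood at 0.48 and 0.34 times and that of *H2-D1* at 0.23 times.

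The subunits of the peptide transporter lay on opposite sides of 0. *Tap1* had 9 usable spots of 10, with signals from 64.8 to 78.8 in the control pool and from 83.5 to 98.4 in the *H-Bmal1*-/- pool. In 8 of its 9 spots the scaled value was higher in the *H-Bmal1*-/- pool. The mean log2 ratio was 0.22 ± 0.14 (SD over spots, range −0.04 to 0.37), or 1.01 times the scanner's error. *Tap1* was dim, and with normexp its log2 ratio was 0.09. *Tap2*, with 1 spot, gave 2077 in the control pool and 1943 in the *H-Bmal1*-/- pool, a log2 ratio of −0.25. It was the lowest of the 9 genes, at the 20.3rd percentile of all measured genes and 1.21 times the scanner's error.

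Over the 5 class I genes the median log2 ratio was 0.08, and over the 4 class II genes measured it was −0.17, beside −0.01 over all measured genes. The central 50% of all measured genes ran from −0.20 to 0.18. *B2m*, *Tap1*, *Tap2* and *Cd74* lay outside that range and the other 5 genes inside it.

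**Figure D2:**
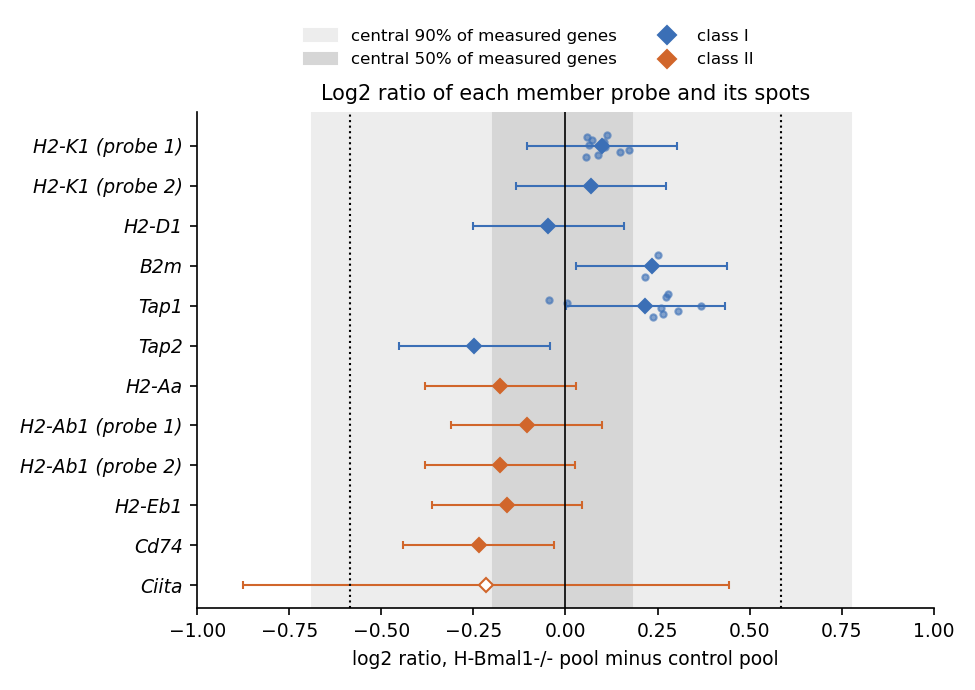
Log2 ratio of each MHC probe, *H-Bmal1*-/- minus control after scaling (diamonds, class I in blue and class II in orange), with the scanner's error of 1 spot as bars and single spots as dots where a probe has several. The gray bands hold the central 90% and 50% of all measured genes and the dotted lines mark 1.5-fold. All diamonds lie between the dotted lines, with the class II probes left of 0.

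All 4 measured class II genes were lower in the *H-Bmal1*-/- pool after scaling, but without scaling 1 of them (*H2-Ab1*) turned to 0.01 and the others shrank to between −0.08 and −0.01. *H2-Aa*, the α chain of the I-A molecule, gave signals of 1134 and 1114, a log2 ratio of −0.18. *H2-Ab1*, its β chain, gave 7160.1 and 7391 with 1 probe (−0.11) and 5987 and 5878 with the other (−0.18). The β chain of the I-E molecule, *H2-Eb1*, gave 7281 and 7247, a log2 ratio of −0.16. *Cd74*, on chromosome 18 and so outside the MHC, gave 3922 and 3699, a log2 ratio of −0.24 or 1.16 times the scanner's error. The other class II probes lay within that error, at 0.87 (*H2-Aa*), 0.52 and 0.87 (*H2-Ab1*) and 0.78 times (*H2-Eb1*). The deposited signals of these genes were thus almost level between the pools. Without scaling, however, the median log2 ratio of all measured genes was 0.14. Measured from the median of all genes, the class II median was −0.15 both with and without scaling. *Ciita*, the class II transactivator, was not well above background in either pool, with signals of 9.09 and 8.70, so no fold is given for it.

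Of the 10 genes, 7 lie in the MHC region of chromosome 17, and *B2m*, *Cd74* and *Ciita* lie elsewhere. In the RefSeq gene order from *H2-K1* to *H2-D1*, 69 of 122 genes were measured. Of the 62 that are not in the set, 32 lay above 0 and 30 below it, with a median of 0.01. Without scaling 48 lay above 0, with a median of 0.16. After scaling, 8 of the 62 passed 1.5-fold upward and 4 downward. Of all measured genes, 6.17% did so upward and 5.85% downward. Among those that passed, *Btnl2* (upward) and *H2-Eb2* and *D17H6S53E* (downward) were not above background on both arrays. Whether the region differs from the rest of the genome was not tested. The class II genes *H2-Ab1*, *H2-Aa* and *H2-Eb1* stand side by side there with log2 ratios from −0.18 to −0.14.

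**Figure D3:**
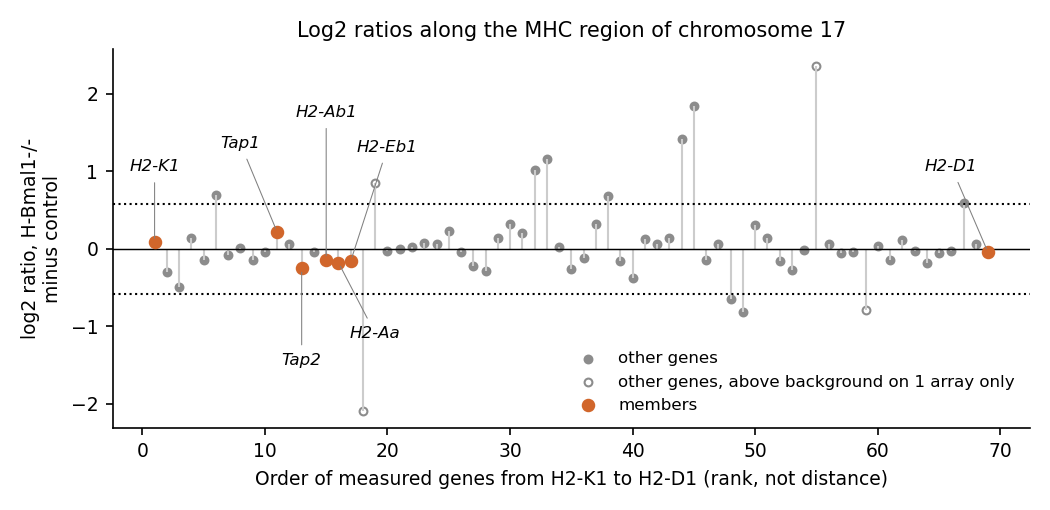
Log2 ratio (*H-Bmal1*-/- minus control after scaling) of the 69 measured genes from *H2-K1* to *H2-D1*, by rank in the RefSeq order, with the MHC genes described here in orange. Open points were above background on 1 array only, so their height is not a fold. The dotted lines mark 1.5-fold, and the orange points lie close to 0 while several other genes pass the lines. Except for *C4b*, the genes that pass had a signal below the 75th percentile on at least 1 array. The orange points except *Tap1* lay above it on both arrays. Of all genes above it on both, 5.67% reached 1.5-fold, against 12.0% of all measured genes.

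The remaining class I heavy chain and class I-like genes lay on both sides of 0. Of 28 listed, 14 were measured, 6 higher and 8 lower, with a median of −0.01 and none at 1.5-fold, but without scaling 12 were higher and the median was 0.14. The highest were *Hfe*, an MHC-like regulator of iron uptake (0.58, and past 1.5-fold without scaling at 0.73 and with normexp at 0.67), and *H2-T10* (0.20), and the lowest were the lipid-presenting *Cd1d1* (−0.38) and *Mr1*, which presents vitamin metabolites (−0.22). Among 17 genes of peptide loading and the immunoproteasome, 5 were higher and 12 lower (median −0.06), none of them at 1.5-fold, but without scaling 12 were higher and the median was 0.09. Tapasin (*Tapbp*), which bridges TAP and the heavy chain, was at −0.06, and the immunoproteasome subunits *Psmb8* and *Psmb9*, encoded beside the TAP genes, were at 0.07 and −0.05. The extremes of this list were the protease *Sppl2a* (0.25) and *Psmb10* (0.11), and the chaperone *Hspa5* (−0.48) and the proteasome activator *Psme1* (−0.32). *Sppl2a* was listed for class II processing as well, so the counts of both lists include it.

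The list of other class II chains, processing enzymes and costimulatory molecules had 15 genes measured among 19, of which 12 were higher and 3 lower, with a median of 0.16. The 3 lower genes were all class II chains (*H2-Eb2*, *H2-DMb1* and *H2-Ob*, at −0.04), whereas the cathepsins and the costimulatory genes *Cd40*, *Cd80* and *Cd86* were all above 0. *H2-Ob* and these last genes were named after their values were seen. Without scaling, 14 of the 15 genes were higher (median 0.31), with *H2-DMb1* at 0.01 and *H2-Ob* at 0.11. After scaling, the 2 probes of *H2-Ob* gave −0.14 and 0.06. *Ifi30*, a lysosomal thiol reductase that unfolds antigens, was at 0.41. *H2-Oa*, a chain of the H2-O molecule that restrains peptide loading, was at 0.69, at signals of only 14.98 and 26.9 and at 0.11 with normexp background correction. The peptide exchange chains *H2-DMa* and *H2-DMb1* were at 0.01 and −0.14. *H2-Eb2* was above background in the control pool only, with signals of 16.5 and 4.30, which makes it at least 1.65-fold lower in the *H-Bmal1*-/- pool. *H2-Ea*, the partner chain of *H2-Eb1*, had no probe with that name and was not analysed here. The *H2-Eb1* signal therefore does not show that the I-E molecule was made.

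Regulators of the pathway lay on both sides of 0. In the list of X and Y box proteins and interferon γ signaling, 22 of 24 genes were measured, 7 higher and 15 lower, with a median of −0.05 that turned to 0.10 without scaling, and none reached 1.5-fold. *Rfx5*, a subunit of the RFX complex, and *Ifng*, interferon γ itself, were not well above background. *Nlrc5*, the class I transactivator, averaged −0.06, but its 2 probes gave −0.31 and 0.19. *Irf1*, an interferon-induced factor that binds the IRF core shown above, was at −0.18. The feedback inhibitor *Socs3* was at 0.33. The lowest were *Creb1* (−0.32), which binds the X2 box, and *Rfxap* (−0.28), another RFX subunit. Of 30 measured interferon-stimulated genes, 21 were higher and 9 lower, with a median of 0.06 and none at 1.5-fold. Without scaling 24 were higher (median 0.21), where 69.8% of all measured genes were. *Zbp1* (0.41) and *Xaf1* (0.40) stood at the upper end, each with probes that differed (0.15 and 0.66, and 0.01 and 0.79) and at 0.18 and 0.10 with normexp, and the interferon-inducible GTPase *Iigp1* (−0.53) and the chemokine *Cxcl9* (−0.38) at the lower.

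Because class II genes are mainly expressed by immune cells, markers of the cells in the tissue were set beside them. In whole ventricle, fewer cells of a type and less RNA per cell cannot be told apart. Of 10 pan-leukocyte markers 5 were higher and 5 lower (median 0.03), but without scaling all 10 were higher (median 0.18). *Ptprc* (CD45) was at −0.06, and the summed signal of the markers, relative to the 75th percentile, was 42.6 in the control and 46.1 in the *H-Bmal1*-/- pool. *Cd52* (0.29) and *Fcer1g* (0.18) were the highest of them, and *Cd53* (−0.13) and *Cd48* (−0.13) the lowest. Macrophage and monocyte markers were higher for 12 of 15 measured, by a median of 0.06 (summed signal 58.1 and 60.7). Without scaling 13 were higher (median 0.21), where 69.8% of all measured genes were. *Ccr2*, a monocyte chemokine receptor, was 1.54-fold higher, at signals of 24.4 and 41.9, and *Fcgr1* was at 0.44. With normexp they were at 0.16 and 0.20. The lowest were *Cd163* (−0.26, and −0.10 with normexp) and *Mertk* (−0.22, and −0.17 with normexp). The signals of *Cd163* were only 21.1 and 19.6. *Cd68* had no probe with that name.

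Dendritic cell markers were higher for 5 of 8 measured, with a median of 0.34 (0.28 with *Flt3* at its bound), but the median was −0.02 with normexp and 0.10 over genes above background on both arrays. Of these, 3 were at least 1.5-fold higher (0 with normexp), beside 6.17% of all measured genes. The summed signal was 5.96 in the control and 6.51 in the *H-Bmal1*-/- pool. The largest part of that sum was *Siglech*, at signals of 588 and 701, whose 2 probes gave −0.14 and 0.34. *Siglech* was named after its values were seen. *Itgax* (CD11c) was at 1.28, with signals of 20.6 and 55.6, and at 0.41 with normexp. *Flt3* was above background in the *H-Bmal1*-/- pool only, which makes it at least 1.37-fold higher. *Ccr7* and *Clec10a* were both at −0.04, and the defining markers *Xcr1* and *Clec9a* were not well above background.

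B cell markers were higher for 1 of 5 measured (median −0.08, or 3 of 5 and 0.07 without scaling, summed signal 2.02 and 1.93), with *Fcer2a* at 0.23, *Cd79b* at −0.05, *Cd22* at −0.15 and *Ms4a1* at −0.21, while *Cd79a*, *Pax5* and *Blk* were not well above background. T and NK cell markers were higher for 5 of 9 measured (median 0.16, summed signal 7.51 and 6.24), but the median was below 0 with normexp (−0.06), with genes above background on both arrays (−0.01) and with the brightest probe of each gene (−0.19). *Cd3e* was at −0.19, *Cd3d* at 0.36, *Cd5* at 0.29, *Cd4* at −0.33 and the costimulatory receptor *Cd28* at −1.32. *Cd8a*, *Cd8b1*, *Ncr1* and *Klrd1* were not well above background.

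Endothelial markers, from cells rich in class I molecules, were higher for 2 of 10 (median −0.11, turning to 0.04 without scaling; summed signal 118 and 111), with *Pecam1* at −0.10, *Emcn* at 0.10, *Vwf* at 0.06 and *Cdh5* and *Kdr* both at −0.22. Fibroblast markers were higher for 9 of 10 (median 0.57, summed signal 302 and 449), and 5 were at least 1.5-fold higher, beside 6.17% of all measured genes. They ran from *Postn*, a matrix protein of activated fibroblasts (1.87), and *Col1a1* (0.90) down to *Ddr2* (0.13) and *Pdgfrb* (−0.17). Cardiomyocyte markers were lower for 10 of 12 (median −0.19, summed signal 10078 and 9117), with *Myh6* at −0.32, *Tnni3* at −0.42, *Pln* at −0.41, *Tnnc1* at 0.29 and *Mybpc3* at 0.34, and 5 of the 12 were higher without scaling. All 12 were well above background in both pools. The part that cell composition has in the MHC values was not tested.

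**Figure D4:**
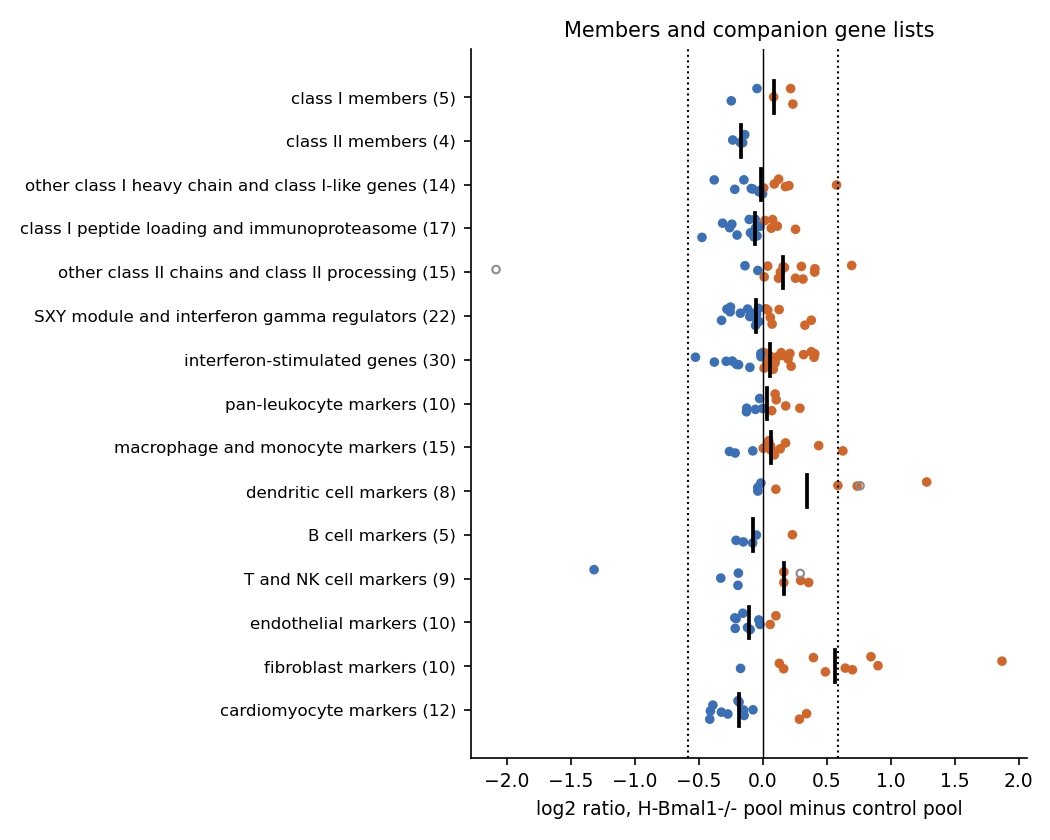
Log2 ratio (*H-Bmal1*-/- minus control after scaling) of the measured genes in each list, with their number in parentheses. Orange points are above 0 and blue points below it. Gray open points were above background on 1 array only, so their place is not a fold. Black bars are medians and dotted lines mark 1.5-fold. The lists of class I and class II members stay between the dotted lines, and the fibroblast median lies near the upper one.

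The position of the MHC genes relative to 0 changed most without scaling between the arrays. Over 10 alternatives, *B2m* ranged from 0.22 to 0.39, *Tap1* from 0.09 to 0.37 and *H2-K1* from 0.07 to 0.24. *Tap2* ranged from −0.27 to −0.10, *Cd74* from −0.25 to −0.08, *H2-Aa* from −0.19 to −0.03 and *H2-Eb1* from −0.18 to −0.01. Only *H2-D1* (−0.06 to 0.11, above 0 without scaling and with normexp) and *H2-Ab1* (−0.16 to 0.01, above 0 without scaling) changed sign. Measured from the median of all genes, which does not depend on the scaling constant, class I stood at 0.10 and class II at −0.15. With no filter on dim probes, which lowers the median of all genes and adds *Ciita*, these were 0.18 and −0.08. In none of the 10 alternatives did any MHC gene reach 1.5-fold.

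**Figure D5:**
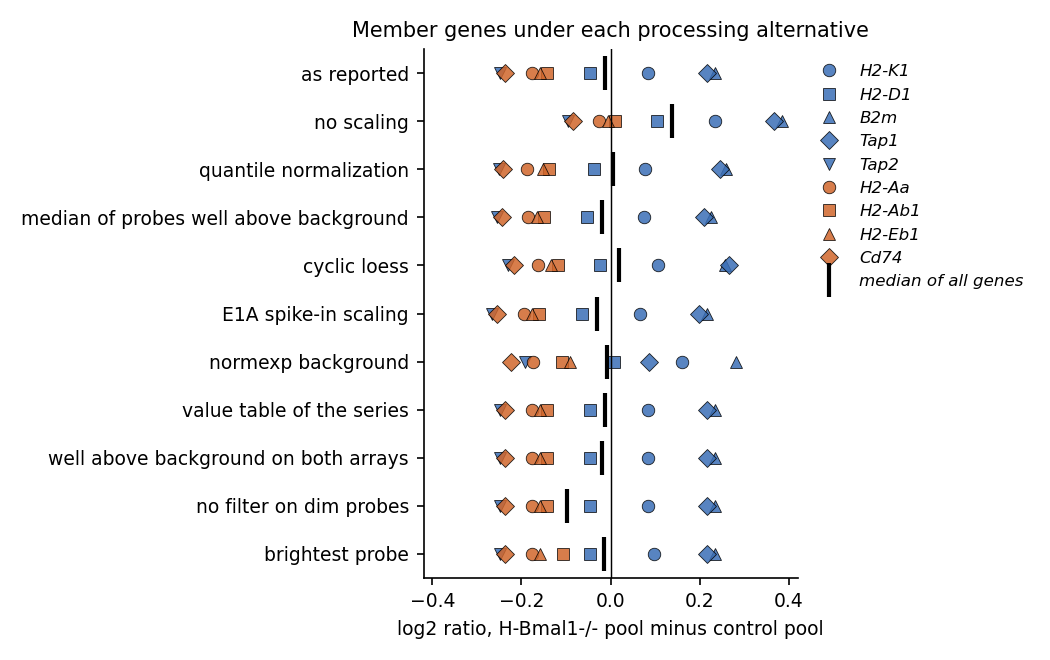
Log2 ratio (*H-Bmal1*-/- minus control) of the 9 measured MHC genes as reported and under each of 10 processing alternatives, class I in blue and class II in orange. Black ticks are the median of all genes. Without scaling all symbols and the tick move right by 0.15, and with normexp *Tap1* moves toward 0.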

How the data were processed

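Total RNA of left ventricle, pooled from 6 animals per genotype, was labeled with Cy3 and hybridized by the authors to Agilent SurePrint G3 Mouse arrays in 1 color, 1 array per genotype. The same slide and scan held both arrays. The deposited intensities are Feature Extraction processed signals, background-subtracted, linear and not scaled between arrays. The submitters' processing notes name version 10.5.1.1 and the scanner output 10.10.1.1. The deposited value table of the series held the same intensity times 1 factor per array and served as an alternative.

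Control spots and 269 spots with an outlier flag were left out, and no noncontrol spot was saturated. Spots were averaged per probe and probes per gene as log2 values, after each array's 75th percentile over its noncontrol spots (59305) was subtracted. Probes were named through RefSeq accessions (GRCm38.p6 gene table), which named 26762 of 55681 probes. A gene counted as measured when a probe was well above background on at least 1 array. Where only 1 array measured it, the fold is a bound against the lowest signal well above background. The threshold of size was 1.5-fold, with 1.2-fold and 2-fold beside it. With 1 array per genotype no test was run, and the number of arrays limits the precision. The calculation of log2 ratios was checked on simulated data.

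The members and the 13 companion gene lists were chosen with earlier results of these data known. All members, a fixed set of regulators and defining markers, and up to 2 highest and 2 lowest genes of each list were named, except for 2 genes that are not reported here. Alternatives were no scaling, quantile normalization, the median of probes above background, cyclic loess, 7 E1A spike-in probes, normexp with offset 50, the value table, both filters on dim probes and the brightest probe. Python 3.11.15, pandas 2.3.3, R 4.3.3 and limma 3.58.1 were used.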

Additional observations from a re-analysis of the deposited data

How the results depend on the processing

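With 1 pooled array per genotype, no replicate could be left out and no array error between animals is known. No paired analysis was possible because the labels give each genotype only replicate 1. Without scaling, which moves the median of all genes by 0.15, the class I median was 0.24, the class II median −0.016 and 5 MHC genes were higher. Genes at least 1.5-fold higher then numbered 1340 and lower 530, against 855 and 811 with scaling. With normexp these counts were 369 and 248. No MHC gene reached 1.5-fold in any alternative, or 1.2-fold or 2-fold as reported. At 1.2-fold, 2 did without scaling (*B2m*, *Tap1*) and 1 each with cyclic loess (*Tap1*), E1A scaling (*Tap2*) and normexp (*B2m*). With the measured ratio in place of the bound, an alternative chosen after seeing the data, the counts were 1017 and 876. For single MHC genes and gene lists, 31 values under the alternatives moved by more than the median SD between spots (0.07) and 189 by less. Signal over background limits *Ciita*, *Tap1*, *H2-Oa*, *Ccr2*, *Cd163*, *Itgax* and *Flt3*, which were dim, and *Cfb* and *Hspa1a* described below.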

Other observations

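Between *H2-K1* and *H2-D1*, some genes that present no antigen differed more than the MHC genes did. These were named after their values were seen. *C4b* and *Cfb*, components of complement, had log2 ratios of 1.02 and 0.68, and the heat shock genes *Hspa1a* and *Hspa1l* had ratios of 1.42 and 1.85, all above background on both arrays. Whether these differences would recur in other pools was not tested.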
